A study of Mus musculus with 31 samples.

Results

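The 6 genes described here encode STAT transcription factors: Stat2, Stat3, Stat4, Stat5a, Stat5b and Stat6. They were chosen by name, matched to the Ensembl IDs of the count files, and make up 6 of the 29120 gene IDs in those files. They were followed through 31 RNA-seq libraries of C57BL/6 mice in 6 groups. Dendritic cells, which show antigens to T cells, were grown from the marrow of leg bones of males 8 to 16 weeks old, over 10 days with GM-CSF from the supernatant of a secreting line. Some of the dishes were given LPS, part of the outer membrane of Gram-negative bacteria, on day 11 for 8 h. The dendritic cell groups were wild-type naive, wild-type with LPS, Gpr34-/- naive and Gpr34-/- with LPS (n = 3 libraries each), all with the same strain and culture. The spleen groups were whole organs of 12-week-old mice, wild-type (n = 10) and Gpr34-/- (n = 9). Gpr34 encodes a receptor for lysophosphatidylserine coupled to G proteins, and the series is titled as a study of how the expression of Gpr34 is regulated. The labels number the replicates without naming the mouse behind each, and do not say whether mice were pooled, so the spread behind every p-value is that of these libraries and may be technical in part.

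STAT proteins wait in the cytoplasm until a cytokine binds its receptor. Janus kinases bound to the receptor then phosphorylate them, and STAT dimers enter the nucleus and bind DNA. Most dimers bind GAS elements, while STAT2 joins IRF9 in the complex ISGF3, which binds the ISRE of interferon-stimulated genes. In dendritic cells STAT5 lies downstream of GM-CSF, STAT3 downstream of IL-6, IL-10 and FLT3 ligand, STAT6 downstream of IL-4 and IL-13, and STAT4 downstream of IL-12 and interferons.

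Total counts were 38998746 to 74164853 per dendritic cell library and 56834377 to 133277070 per spleen library. Gpr34, the targeted gene, had 199 to 324 counts in naive and 65 to 125 counts in LPS-treated wild-type cells. Among the cells labelled Gpr34-/-, naive replicates 2, 3 and 4 had 0, 120 and 4 counts, and LPS-treated replicates 2, 3 and 4 had 0, 117 and 104 counts. Since 3 of these 6 libraries had over 100 Gpr34 counts, the 6 are called cells labelled knockout, and results are given with and without those 3. These 3 are the libraries with Gpr34 reads named below, and whether they carry a wrong label was not tested. No such limit was set for spleens. In spleen Gpr34 had 308 to 986 counts in wild-type and 42 to 156 counts in Gpr34-/- libraries. CPM is the usual depth-scaled count with library sizes adjusted by edgeR's TMM factors. Naive replicate 3 labelled knockout had 1.48 CPM of Gpr34, below the 3.17 to 4.82 CPM of naive wild-type cells. LPS-treated replicates 3 and 4 had 2.34 and 2.22 CPM, within the 1.46 to 3.44 CPM of LPS-treated wild-type cells. Gpr34-/- spleens had 0.398 to 1.66 CPM. B, T and NK cell markers were nearly absent from dendritic cell libraries. The summed level of the 6 B cell markers was 1.82 to 8.48 CPM there and 2206 to 3580 CPM in spleens. The 6 dendritic cell markers summed to 10120 to 17950 CPM in wild-type cultures and to 8526 to 13675 CPM in wild-type spleens. Naive wild-type cultures, at 10120 to 11735 CPM, lay within that spleen range by number. Cultures and spleens were scaled in separate fits, however, so their marker sums do not share 1 scale. This sum is therefore not used to set them apart. The 6 macrophage markers summed to 1230 to 2268 CPM in wild-type cultures and to 573 to 755 CPM in wild-type spleens.

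The genes lie at 3 places. Stat5b (chr11:100780731-100850724, minus strand), Stat5a (chr11:100859351-100885169, plus strand) and Stat3 (chr11:100885098-100939540, minus strand) are neighbours. Stat6 (chr10:127642986-127660957) and Stat2 (chr10:128270559-128292849) share chromosome 10, and Stat4 (chr1:51987148-52107189) stands alone, these 3 on the plus strand. All places are those of GRCm38 in the GENCODE M21 annotation, found by Ensembl ID, and not of mm9, the build named for the files. Several members can share reads with another gene. Of the 50-base stretches of Stat5a transcripts 8.21% also occur in Stat5b, and of those of Stat5b 11.0% occur in Stat5a, a close paralog. Stat4 shared 21.7% of its stretches with Gm28177, an overlapping gene model on the same strand that has no row in the files used here. The 3' ends of Stat3 and Stat5a overlap on opposite strands, and Stat6 overlaps Nab2, so without a stated use of strand a part of their reads could not be told apart.

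The promoters were searched for the motifs of the STAT pathway, and the sequences of Stat2 and Stat4 are shown because theirs held the ISRE core (GAAA, then NN for any bases, then GAAA) on either strand. Each line gives the 250 bases before a RefSeq transcription start, 5' to 3', from the GRCm38.p6 table, with the ISRE core in capitals. For Stat2 this is chr10:128270248-128270497 (plus strand) and for the second start of Stat4 chr1:52007990-52008239 (plus strand). Neither overlaps an annotated exon.
Stat2: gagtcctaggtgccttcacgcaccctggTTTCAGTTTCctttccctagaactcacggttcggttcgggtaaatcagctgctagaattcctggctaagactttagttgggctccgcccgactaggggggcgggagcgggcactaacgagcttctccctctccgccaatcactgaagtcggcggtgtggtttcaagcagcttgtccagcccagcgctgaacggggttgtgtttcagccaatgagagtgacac
Stat4: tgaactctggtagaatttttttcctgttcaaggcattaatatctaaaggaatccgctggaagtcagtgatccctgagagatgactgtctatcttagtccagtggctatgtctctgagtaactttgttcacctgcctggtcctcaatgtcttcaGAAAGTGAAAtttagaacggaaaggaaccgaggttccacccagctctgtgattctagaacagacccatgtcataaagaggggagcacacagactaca

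In Stat2 the match lies on the minus strand, 222 to 213 bases before the start, where it reads GAAACTGAAA. In Stat4 it lies on the plus strand, 97 to 88 bases before the start. All 6 genes had at least 1 RefSeq start, 9 windows in all, and the ISRE core occurred in 2 of the 9, against 2.98% of 32851 windows of the same length over 27025 genes. The GAS element TTCNNNGAA, searched on both strands, occurred in none of the 9 windows and in 7.02% of all windows. The 10-base NF-kB consensus occurred in 7.25% of all windows and in 1 window of Stat5a, 234 to 225 bases before the second start, where GGGGCACCCC on the plus strand and its reverse complement both matched. A match is a run of letters and not a site shown to be bound.

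LPS raised 5 of the 6 STAT genes in wild-type dendritic cells with TMM-scaled library sizes, and 3 of them (Stat2, Stat5a and Stat5b) with plain library sizes, where Stat6 turned to -0.03. Stat5a and Stat2 rose most, 4.52-fold and 3.49-fold, Stat5b rose 2.22-fold, Stat3 rose 1.60-fold, and Stat6 rose least, by 0.38 on the log2 scale. Stat4 did not pass. Across all 16965 genes tested 18.1% were called higher by edgeR's quasi-likelihood test (Benjamini-Hochberg adjusted p under 0.05) and 15.8% lower, and the median log2 fold change was -0.03. In the cells labelled knockout the same 5 genes passed in the same direction, against 15.3% of all genes called higher. Without the 3 libraries with Gpr34 reads, which leaves 2 naive and 1 LPS-treated library of that label, the lone one taken to vary like the other groups, the same 5 passed: Stat2 at 1.73, Stat5a at 2.19, Stat5b at 1.03, Stat3 at 0.57 and Stat6 at 0.43, with Stat4 at 0.40 (adjusted p = 0.135 by edgeR). Naive and LPS libraries did not overlap for 6 of the 6 genes in wild-type cells, as for 25.6% of all genes in that direction, and for 5 of 6 in cells labelled knockout, as for 21.3%. Markers moved with LPS too: 4 of 6 dendritic cell markers and 4 of 5 tested red pulp macrophage markers were called higher in wild-type cells, none at 0. Their summed levels went from 10120 to 11735 CPM up to 15515 to 17950 CPM and from 55.8 to 58.6 CPM up to 269 to 429 CPM. Summed mast cell markers were 51.6 to 56.5 CPM in naive and 20.8 to 28.9 CPM in LPS-treated wild-type cells, with Mcpt4 at 0 and 1 of 4 tested called lower in each label, while the median log2 fold change of those 4 was 0.48 in wild-type cells. The part of all these markers in the STAT changes was not tested.

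Stat2, the interferon-activated partner of IRF9, had 374, 338 and 355 CPM in replicates 1, 2 and 4 of naive wild-type cells and 1324, 1196 and 1200.0 CPM in replicates 1, 2 and 3 of LPS-treated ones. In cells labelled knockout it had 347, 369 and 387 CPM in naive replicates 2, 3 and 4 and 1252, 1292 and 1393 CPM in LPS-treated replicates 2, 3 and 4. All 6 LPS libraries thus lay far above all 6 naive ones, with little spread within a group. The log2 fold change was 1.80 (SE 0.08, adjusted p = 2.89e-07) in wild-type and 1.84 (SE 0.08, adjusted p = 2.72e-07) in cells labelled knockout by edgeR. By p-value Stat2 ranked 11 and 10 of 16965 genes in these comparisons.

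Stat5a, which encodes one of the STAT5 proteins downstream of GM-CSF, had 189, 219.6 and 221 CPM in replicates 1, 2 and 4 of naive wild-type cells. After LPS it had 986, 977 and 887 CPM in wild-type replicates 1, 2 and 3. The ranges were far apart, and edgeR put the log2 fold change at 2.18 (SE 0.34, adjusted p = 0.000604). Among cells labelled knockout naive replicates 2, 3 and 4 had 189, 557 and 210.3 CPM, and LPS-treated replicates had 932, 969 and 972 CPM. Naive replicate 3 stood between the other naive libraries and the LPS libraries. On the log2 scale the change was 1.59 (SE 0.33, adjusted p = 0.00438 by edgeR) with this library and 2.25 (SE 0.09, adjusted p = 2.05e-07) without it.

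Stat5b, the neighbouring paralog, moved less. It had 91.6, 98.2 and 87.3 CPM in replicates 1, 2 and 4 of naive wild-type cells and 223, 216 and 176 CPM in replicates 1, 2 and 3 of LPS-treated ones. This was a difference of 1.15 on the log2 scale (SE 0.19, edgeR's adjusted p = 0.00081). In cells labelled knockout the values were 85.3, 142 and 83.8 CPM in naive replicates 2, 3 and 4 and 177, 202 and 205 CPM after LPS. Naive replicate 3 was again the highest naive library, below every LPS library. The log2 fold change was 0.91 (SE 0.19, adjusted p = 0.00403 by edgeR), and 1.19 (SE 0.11) without that library.

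Stat3, which carries IL-6 and IL-10 signals, had 770.0, 842 and 815 CPM in replicates 1, 2 and 4 of naive wild-type cells and 1423, 1250.2 and 1215 CPM in replicates 1, 2 and 3 of LPS-treated ones. Among cells labelled knockout it had 657, 789.9 and 703 CPM in naive replicates 2, 3 and 4 and 1037, 1531 and 1374 CPM after LPS. The naive and LPS ranges did not overlap in either label, and LPS-treated replicate 2 was the lowest of the 6 LPS libraries. On the log2 scale the change was 0.68 (SE 0.13, adjusted p = 0.0026) in wild-type and 0.87 (SE 0.13, adjusted p = 0.000762) in cells labelled knockout by edgeR.

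Stat6, the IL-4 and IL-13 factor, had 218, 241 and 217 CPM in replicates 1, 2 and 4 of naive wild-type cells and 315, 292 and 272 CPM in replicates 1, 2 and 3 of LPS-treated ones. In cells labelled knockout it had 199, 230.2 and 187 CPM in naive replicates 2, 3 and 4 and 265, 276 and 274 CPM after LPS. All LPS libraries were above all naive ones, by a narrow margin. The log2 fold change was 0.38 (SE 0.09, adjusted p = 0.00885) in wild-type and 0.41 (SE 0.09, adjusted p = 0.00748) in cells labelled knockout by edgeR. The wild-type call was lost without naive wild-type replicate 1 (0.31, adjusted p = 0.0551) or without naive wild-type replicate 4 (0.31, adjusted p = 0.0555).

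Stat4, the IL-12 factor, had 247, 276 and 246 CPM in replicates 1, 2 and 4 of naive wild-type cells and 366, 393 and 313 CPM in replicates 1, 2 and 3 of LPS-treated ones. Among cells labelled knockout it had 201, 387 and 249.8 CPM in naive replicates 2, 3 and 4 and 306, 485 and 405 CPM after LPS. The wild-type groups did not overlap, while in cells labelled knockout naive replicate 3 lay above LPS-treated replicate 2. On the log2 scale the change was 0.48 (SE 0.23, adjusted p = 0.128) in wild-type and 0.51 (SE 0.23, adjusted p = 0.115) in cells labelled knockout by edgeR, in a fit whose spread takes in all 12 libraries. Without naive replicate 3 labelled knockout it was called in cells labelled knockout (0.81, adjusted p = 0.00646), as it was by limma voom with every library kept (0.65, adjusted p = 0.00937). In wild-type cells it was called in a fit of the 6 wild-type libraries alone (0.46, adjusted p = 0.00792), without the 3 libraries with Gpr34 reads (0.46, adjusted p = 0.0133) and by limma voom (0.50, adjusted p = 0.0218), over adjusted p from 0.00792 to 0.818 in all settings with every wild-type library kept.

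**Figure D1:**
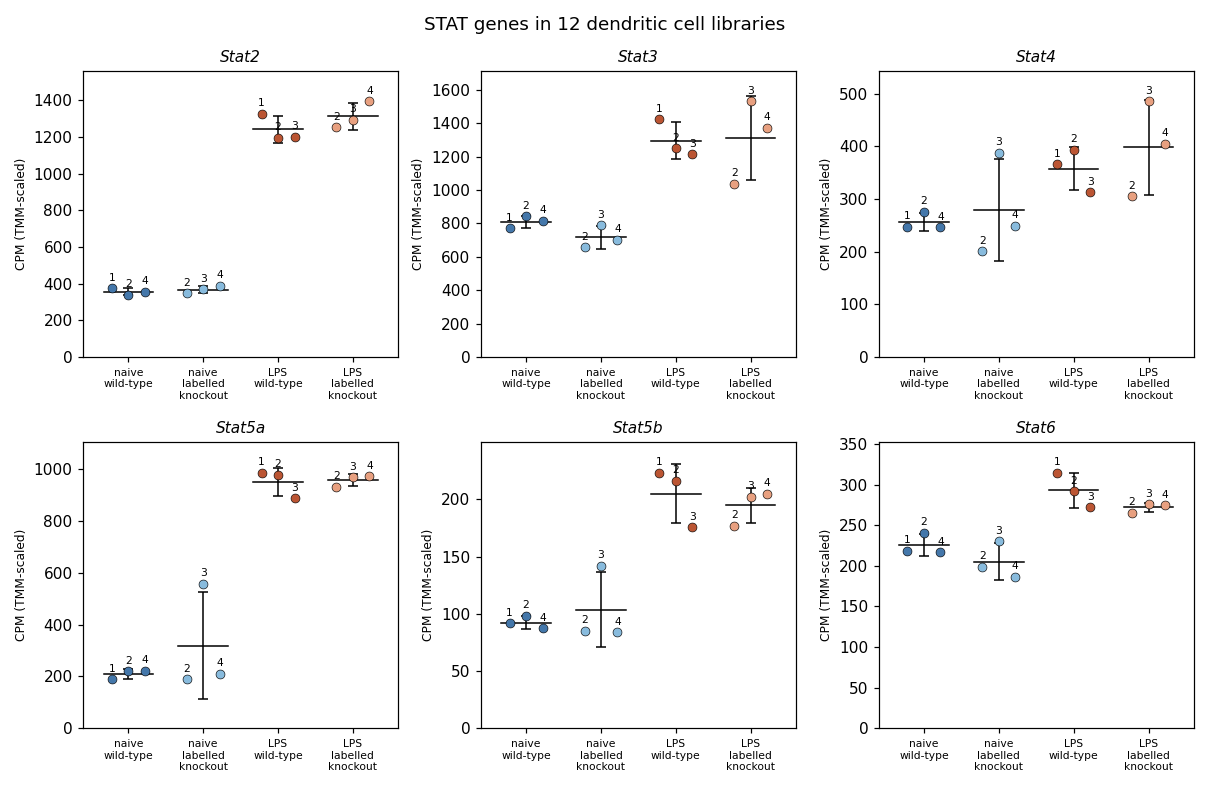
CPM of each STAT gene (TMM-scaled library sizes, axes from 0) in the 12 dendritic cell libraries. Points are libraries with their replicate numbers, bars the mean and SD of 3. Stat2 in LPS-treated cells sits between 1196 and 1393 CPM, above 338 to 387 CPM in naive cells, and naive replicate 3 labelled knockout stands apart for Stat5a at 557 CPM.

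The size of the LPS changes depended on the scaling between libraries. TMM factors of naive libraries were 1.10 to 1.16, those of LPS-treated ones 0.848 to 0.919. With plain library sizes the median log2 fold change of all genes was -0.44 in wild-type cells and -0.35 in cells labelled knockout. In wild-type cells 1599 genes were then called higher and 6128 lower, against 3064 and 2679 with TMM, and in cells labelled knockout 1441 and 4986, against 2601 and 2274. Every STAT gene then moved down with it: Stat2 to 1.39, Stat5a to 1.77 and Stat5b to 0.74 in wild-type cells, all 3 still called. Stat3 stood at 0.27 and was no longer called in wild-type cells (adjusted p = 0.132 by edgeR), but was in cells labelled knockout (0.55, adjusted p = 0.0095). Stat6 changed sign in wild-type cells, to -0.03 (adjusted p = 0.795), and stood at 0.08 (adjusted p = 0.517) in cells labelled knockout. In plain CPM the 3 naive wild-type libraries had 248 to 275 and the 3 LPS-treated ones 231 to 272 for Stat6, so these groups overlapped. Less the median of all genes, Stat6 differed by 0.41 in wild-type cells under both scalings, Stat3 by 0.71 and Stat4 by 0.51. In cells labelled knockout Stat6 differed by 0.43 and Stat3 by 0.90 under both, and Stat4 by 0.54 with TMM and 0.55 without. A change of scaling moves all genes by about the same amount, so this likeness was fixed in advance and is no support for the rises.

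**Figure D2:**
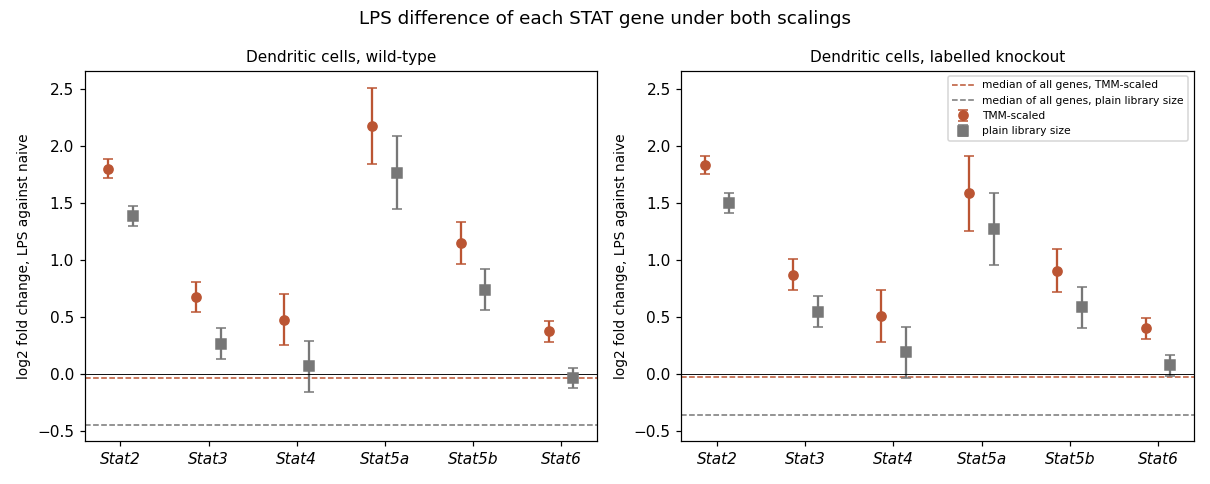
Log2 fold change of each STAT gene, LPS against naive, in wild-type cells (left) and in cells labelled knockout (right). Points are edgeR estimates with SE bars (n = 3 libraries a group), circles with TMM-scaled and squares with plain library sizes, and dashed lines mark the median of all genes tested. Both points of a gene keep about the same height above their own dashed line, as they must when a change of scaling moves all genes alike.

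The ratio of Stat5a to Stat5b was taken within each library, where no scaling between libraries enters. It was chosen with the larger rise of Stat5a in these libraries already known, so its test is no independent evidence of that difference. Per kb of exon the ratio was 1.60, 1.74 and 1.97 in replicates 1, 2 and 4 of naive wild-type cells and 3.43, 3.51 and 3.92 in replicates 1, 2 and 3 of LPS-treated ones. In cells labelled knockout it was 1.72, 3.05 and 1.95 in naive replicates 2, 3 and 4 and 4.09, 3.72 and 3.68 after LPS. All 6 LPS libraries were above all 6 naive ones. Over both labels the ratio was 1.90-fold higher after LPS, which is 0.93 on the log2 scale (exact two-sided permutation test, p = 0.00216, the smallest that 6 against 6 libraries allow). Within a label it was 2.05-fold higher in wild-type cells and 1.76-fold higher in cells labelled knockout (exact permutation p = 0.1 each, the smallest that 3 against 3 allow). In spleens the ratio was 0.711 ± 0.0743 (SD, n = 10) in wild-type and 0.718 ± 0.0848 (SD, n = 9) in Gpr34-/- spleens. The spleen groups differed by 1.01-fold (exact permutation p = 0.861). Whether a ratio is above or below 1 depends on the lengths used: with the longest coding transcript of each gene as its length, a choice made after seeing the data, Stat5a took 9.17% and Stat5b 7.51% of the summed STAT level in wild-type spleen, so their order there turned.

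**Figure D3:**
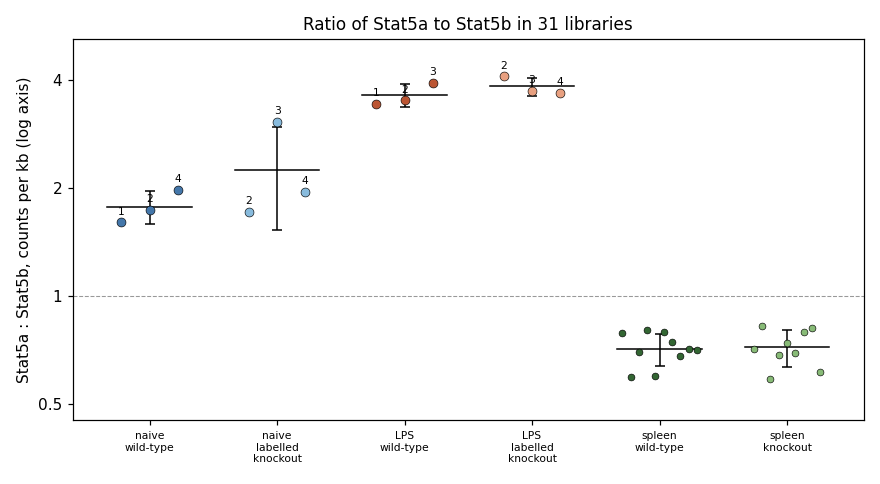
Ratio of Stat5a to Stat5b counts per kb of exon length (log axis) in the 31 libraries. Points are libraries, bars the mean and SD of a group, and replicate numbers are given for dendritic cells. LPS-treated cells sit between 3.43 and 4.09, naive cells between 1.60 and 3.05, and wild-type spleens average 0.711.

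No STAT gene was called between cells labelled knockout and wild-type cells, and edgeR called no other gene either. With it 0.0% of the 16965 genes passed in naive cells, after LPS or for the interaction of label and LPS, with 1139, 1914 and 678 genes at an unadjusted p under 0.05. DESeq2 called 76, 369 and 21 genes and limma voom 1, 0 and 0. In naive cells the largest STAT difference was that of Stat5a, 0.60 (SE 0.32, adjusted p = 0.799 by edgeR), from 210.1 ± 18.2 CPM in wild-type to 319 ± 207 CPM in cells labelled knockout (SD, n = 3 each). It rested on replicate 3. Without that library the value was -0.09, and Stat4 and Stat5b went from 0.12 and 0.17 to -0.20 and -0.14. After LPS the STAT differences lay between -0.11 for Stat6 and 0.16 for Stat4 (SE 0.09 and 0.22). The interaction of label and LPS was -0.59 (SE 0.45) for Stat5a with all libraries and 0.11 without naive replicate 3. Without the 3 libraries with Gpr34 reads it was 0.03 for Stat5a and -0.05 for Stat2.

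Naive replicate 3 labelled knockout, 1 of the libraries with Gpr34 reads, differed from the other naive libraries for some STAT genes and not for others. Against the mean of the 3 naive wild-type libraries, on the log2 scale of CPM plus 0.5, it stood at 1.41 for Stat5a, 0.62 for Stat5b and 0.60 for Stat4. For Stat2, Stat3 and Stat6 it stood at 0.05, -0.03 and 0.03. The median over 20 ISGF3 target genes was 0.03 in this library, and -0.32 to 0.11 in the other 5 naive libraries, while LPS-treated libraries had 2.64 to 3.00. Single interferon genes did not all follow that median. Isg15 and Irf9, picked after their values were seen, had 21.7 and 196 CPM in this library, against 6.93 to 10.1 and 142 to 157 CPM in the other naive libraries. Ifi207, with 54.5 CPM, lay within their 53.9 to 65.9 CPM. The median over 12 STAT5 target genes was 0.20 in naive replicate 3, -0.28 to 0.00 in the other naive libraries and 0.34 to 0.56 after LPS. Several lists of cell type markers stood apart in the same library. The median over 6 dendritic cell markers was 0.63 there, against -0.08 to 0.17 in the other naive libraries and 0.69 to 0.89 after LPS, and that over 6 macrophage markers was -0.87, against -0.17 to 0.10 in the other naive libraries and -1.05 to 0.15 after LPS. Plasma cell markers stood at -0.81 there, against -0.24 to 0.13 in the other naive libraries, mast cell markers at -0.81, against -0.55 to 0.07, and erythroid markers at 1.09, against -0.28 to 0.35. LPS-treated replicate 3 labelled knockout, also with Gpr34 reads, had -0.84, -1.02 and 0.93 for these 3 lists and -1.05 for macrophages. The summed macrophage markers were 783 to 1496 CPM in naive cells labelled knockout, 1230 to 1436 CPM in naive wild-type cells and 1209 to 2363 CPM after LPS, with no dendritic cell or macrophage marker at 0 throughout a group. The part of cell makeup in these STAT values was not tested, and in bulk RNA fewer cells of a type and less RNA per cell cannot be told apart.

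The genes whose levels followed each STAT gene most closely over the 12 dendritic cell libraries were named by the smallest root mean square difference of log2 CPM, each gene centred on its own mean, among 10936 candidates. This is a description of 12 libraries that share the LPS contrast. For Stat2, whose own root mean square spread was 0.91, they were Dtx3l, a ubiquitin ligase partner of interferon responses, at 0.11, Ifi207 at 0.11 and Usp25 at 0.12. Stat5a, with a spread of 1.06, was followed by Ndrg1 at 0.12, by Il2ra, the IL-2 receptor alpha chain, at 0.13 and by Nfkbia, the inhibitor of NF-kB, at 0.14. That library entered the choice, so their values in naive replicate 3 labelled knockout are a description. Il2ra had 153 CPM there, 50.0 to 68.4 CPM in the other naive libraries and 213 to 269.8 CPM after LPS. Nfkbia had 280.3 CPM there, 106 to 144 CPM in the other naive libraries and 463 to 524 CPM after LPS. Dtx3l, chosen by its likeness to Stat2, had 43.7 CPM in that library, within the 31.9 to 44.2 CPM of the other naive libraries. Stat6, with a spread of only 0.22, was followed by the Janus kinase gene Tyk2 at 0.06, by Csnk1d at 0.06 and by Wdr1 at 0.06. Stat5b was followed by Dennd5a and Ankib1, Stat3 by Ywhag, Myl12a and Tpm4, and Stat4 by Stxbp3, Slc33a1 and Hsf2, all within 0.075 to 0.128.

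The counts of the pathway lists stand beside 18.1% of all genes called higher and 15.8% lower in wild-type cells, and 15.3% and 13.4% in cells labelled knockout. Of 23 STAT-activating cytokine genes 17 were tested in dendritic cells, and LPS raised 15 and lowered 0 in wild-type cells, with a median log2 fold change of 4.94 over the 17. Il6 rose by 7.12 (SE 0.39) and Il12b by 7.09 (SE 0.39), the latter encoding a chain shared by IL-12 and IL-23, and Il27 rose by 4.94 (SE 0.28). Among cells labelled knockout 14 of the 17 rose and 0 fell. The 7 genes of the interferon receptors and Irf9 all changed in wild-type cells, 5 up and 2 down. Irf9, which completes ISGF3, rose by 0.72 (SE 0.12) and Ifnar2 by 0.79 (SE 0.17), while Ifngr1 fell by 1.43 (SE 0.21) and Ifnlr1 fell by 2.16 (SE 0.33).

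Of 10 tested genes for receptors of the gp130 and IL-10 families, which act through STAT3, 2 rose and 4 fell in each label, where 18.1% of all genes rose and 15.8% fell in wild-type cells, so the count that rose is near that of all genes. Il6st, the shared chain gp130, fell by 1.20 (SE 0.10) and Il6ra fell by 2.08 (SE 0.34) in wild-type cells, while Il10ra rose by 0.77 (SE 0.08). Of 13 tested receptor genes upstream of STAT5 5 rose and 0 fell in each label. Among them were Il2rg, the common gamma chain, at 0.84 (SE 0.09), Il15ra at 2.10 (SE 0.34) and Il2ra at 1.94 (SE 0.35). Csf2rb, which carries the GM-CSF signal and was picked after its values were seen, stood at -0.17 (SE 0.07, adjusted p = 0.1 by edgeR) in wild-type cells. A list of 5 receptor genes of STAT4-linked cytokines held 3 for IL-12 and IL-23 and 2 for IL-18, whose receptor chains belong to the IL-1 receptor family. Both called rises in each label were IL-12 and IL-23 receptor genes, Il12rb1 at 3.18 (SE 0.45) and Il23r at 1.72 (SE 0.37) in wild-type cells. Both falls were IL-18 receptor genes, Il18r1, which fell by 6.01 (SE 0.89), and Il18rap, which fell by 3.43 (SE 0.49). Of the 2 tested IL-4 and IL-13 receptor genes Il13ra1 rose by 0.46 (SE 0.11) in wild-type cells and Il4ra stood at 0.09 (SE 0.08), and neither passed in cells labelled knockout. Of the 4 Janus kinase genes Jak1 at 0.46 (SE 0.08) and Tyk2 at 0.39 (SE 0.11) passed, and both passed in cells labelled knockout. With plain library sizes the median of all genes is -0.44, so changes as small as these are to be read against it.

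Among 18 genes of STAT inhibitors 8 rose and 0 fell in wild-type cells, and 6 rose and 0 fell in cells labelled knockout, beside 18.1% and 15.3% of all genes higher and 15.8% and 13.4% lower, which hold for the other target lists too. Socs3, the feedback inhibitor of gp130 signals, rose by 3.30 (SE 0.28), Usp18, which blocks the interferon receptor, rose by 3.12 (SE 0.13), and Socs1 rose by 1.08 (SE 0.19). All 20 ISGF3 target genes rose in both labels, with a median of 2.91 in wild-type cells and 2.98 in cells labelled knockout. Xaf1 rose by 2.66 (SE 0.13), Ifit2 by 5.06 (SE 0.24) and Irf7 by 4.15 (SE 0.22). Of 18 STAT3 target genes 12 rose and 2 fell in wild-type cells. Il1rn, the IL-1 receptor antagonist, rose by 2.85 (SE 0.21), while Myc fell by 2.67 (SE 0.38). Of 12 STAT5 target genes 7 rose and 0 fell in wild-type cells, among them Osm at 1.77 (SE 0.20), Ccnd2 at 2.45 (SE 0.30) and Cish at 0.59 (SE 0.12), and 7 rose and 1 fell in cells labelled knockout. Of 8 tested STAT4 target genes 3 rose and 3 fell in each label. The 18 STAT6 target genes split as well, 6 up and 6 down in wild-type cells: the chemokine gene Ccl17 rose by 2.95 (SE 0.31) and Tgm2 by 2.06 (SE 0.23), while Klf4 fell by 2.52 (SE 0.31). The lists share genes such as Cish, Socs1 and Il2ra, and none of them was tested as a set. No gene of any of the 13 lists was called by edgeR between labels or for the interaction. As edgeR called 0.0% of all 16965 genes there, this outcome was fixed and is no result about the lists.

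In spleen no STAT gene was called between Gpr34-/- and wild-type mice, where 0.177% of 20371 genes passed (36 genes by edgeR, and 3541 genes at an unadjusted p under 0.05). DESeq2 called 876 genes and limma voom 790, and edgeR called 1051 without knockout spleen 6 and 8 to 1051 over all spleens left out in turn. Of the 36 genes 20 were higher in Gpr34-/- spleens and 16 lower, and with plain library sizes 7 were higher and 183 lower. Stat2 had 121, 147 and 169 CPM as its lowest, median and highest value in wild-type and 98.8, 126 and 172 CPM in Gpr34-/- spleens, with a log2 fold change of -0.09 (SE 0.10). Stat3 had 219, 246 and 326 CPM in wild-type and 175, 259.8 and 291 CPM in Gpr34-/- spleens, a log2 fold change of -0.05 (SE 0.10). The ranges overlapped for both genes, with 3 Gpr34-/- spleens below the lowest wild-type one for Stat2 and 2 for Stat3.

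Stat4 had the largest spleen difference of the 6 genes. Its values were 85.7, 99.8 and 125 CPM in wild-type and 70.7, 92.4 and 104 CPM in Gpr34-/- spleens, so most libraries of both groups lay in the same range. The log2 fold change was -0.17 (SE 0.08, p = 0.0565, adjusted p = 0.303 by edgeR), and it stayed negative, between -0.20 and -0.13, when any 1 of the 19 spleens was left out. Stat5a had 57.3, 66.3 and 80.8 CPM in wild-type and 43.5, 68.3 and 87.1 CPM in Gpr34-/- spleens, with a log2 fold change of 0.03 (SE 0.11). Stat5b had 61.5, 73.3 and 86.4 CPM in wild-type and 55.1, 72.2 and 88.9 CPM in Gpr34-/- spleens, with 0.00 (SE 0.09). Stat6 had 150.4, 169 and 188 CPM in wild-type and 143, 162 and 193 CPM in Gpr34-/- spleens, with -0.01 (SE 0.07). For all 6 genes the difference was smaller than the SD within either group, and the Gpr34-/- group had the wider SD. The summed level of 7 erythroid markers, none at 0, was 29251 to 114882 CPM in wild-type and 42116 to 286798 CPM in Gpr34-/- spleens. Spleen pathway lists held no called gene either, where edgeR called only 0.177% of all genes.

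**Figure D4:**
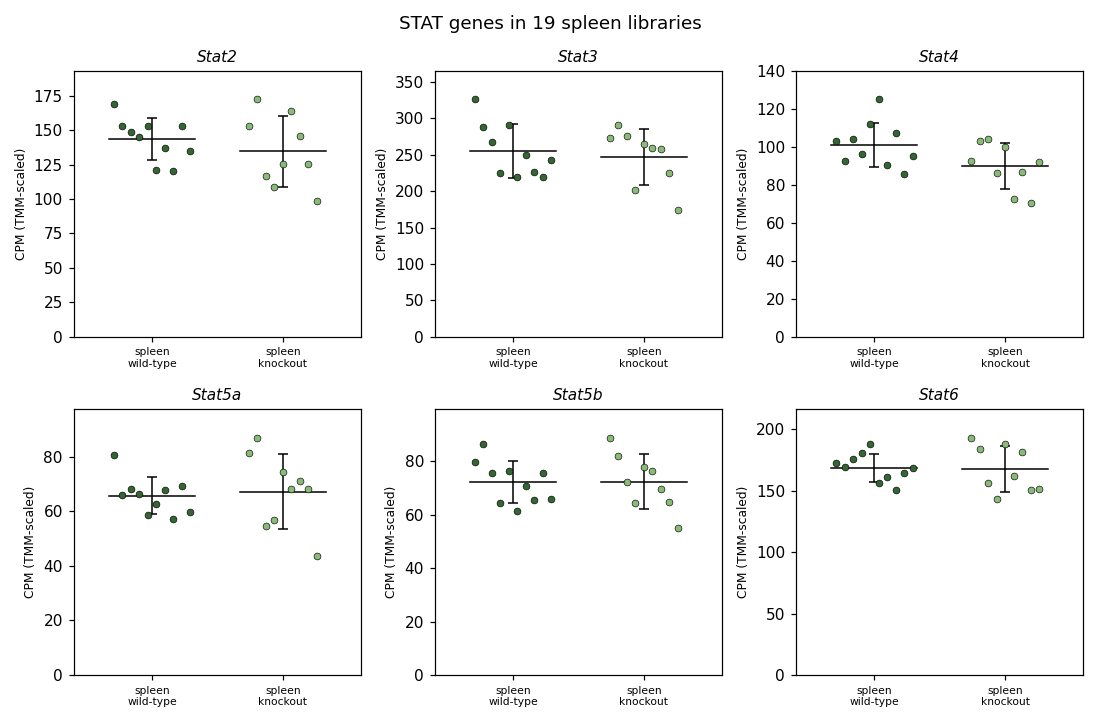
CPM of each STAT gene (TMM-scaled library sizes, axes from 0) in 10 wild-type and 9 Gpr34-/- spleens. Points are libraries, bars the mean and SD. The groups overlap for all 6 genes, and the highest value of Stat4 is 125 CPM in wild-type and 104 CPM in Gpr34-/- spleens.

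Over the 19 spleens the genes closest to Stat2, whose spread was 0.21, were Dnmt3a at 0.08, Eif4g3 at 0.09 and Ifnar1, a chain of the type I interferon receptor, at 0.09. Stat3 was followed by Fbxo21, Atp8b2 and Rapgef1, and Stat4 by Ing4, Dennd1c and Usp11. Stat5a was followed by Prex1, Jmjd4 and Ppfia1, Stat5b by Osbp, Myo9b and Cap1, and Stat6 by Cyth4, Dcaf11 and Ap3d1. None of these 18 genes was among those named for dendritic cells. Within the family Stat4 was the least like the others in spleen, with root mean square differences of 0.20 to 0.31 from the other 5 genes, while Stat3 and Stat5b differed by 0.12. As these small differences share depth and tissue makeup, they are given as a description only.

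All 6 STAT genes were higher in naive wild-type dendritic cells than in wild-type spleen, in a fit of all 31 libraries in which 25.1% of 22585 genes were called higher, 41.6% lower, and the median log2 fold change was -0.44. Stat5a was 1.99 higher (SE 0.18) and Stat3 1.97 higher (SE 0.12) on the log2 scale. Stat4 was 1.65 higher (SE 0.14) and Stat2 1.62 higher (SE 0.11). Stat6 and Stat5b differed least, at 0.73 (SE 0.08) and 0.67 (SE 0.13), and the largest adjusted p of the 6 was 4.79e-05 by edgeR. In each case the lowest culture lay above the highest spleen, as it did for 22.5% of genes. The cultures and the spleens also differ in cell makeup, culture and age, which cannot be told apart here. Among the partners Jak2 was 3.60 higher (SE 0.13) and Tyk2 2.03 higher (SE 0.10) in the cultures, Jak3 stood at -0.64 (SE 0.19), and the GM-CSF receptor gene Csf2rb was 5.43 higher (SE 0.12).

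Levels were compared between the STAT genes per kb of exon on the scale of the joint fit. In naive wild-type cells the order was Stat3 at 97.1 ± 4.41, Stat4 at 75.7 ± 5.07, Stat2 at 68.6 ± 3.49, Stat6 at 58.5 ± 3.60, Stat5a at 33.7 ± 2.89 and Stat5b at 19.1 ± 1.17 CPM per kb (SD, n = 3). The mean ± SD ranges of Stat4 and Stat2 overlapped, and those of the other neighbours did not. Within each library Stat4 lay above Stat2, at 73.0 against 72.3, 81.5 against 65.3 and 72.5 against 68.3 CPM per kb in replicates 1, 2 and 4. After LPS Stat2 led at 239 ± 14.6, followed by Stat3 at 155 ± 13.7 and Stat5a at 152 ± 9.16, which did not differ beyond their SDs. Stat4 at 105 ± 12.3, Stat6 at 75.9 ± 5.74 and Stat5b at 42.2 ± 5.41 CPM per kb came last. In wild-type spleen the order was another one. Stat6 led at 35.3 ± 2.40, and Stat3 at 24.7 ± 3.45, Stat4 at 24.1 ± 2.85 and Stat2 at 22.3 ± 2.23 followed with overlapping mean ± SD ranges. Stat5b at 12.0 ± 1.26 lay above Stat5a at 8.48 ± 0.818 CPM per kb (SD, n = 10), an order that turns with the longest coding transcript as length. The lead of Stat2 after LPS and of Stat6 in spleen depends on dividing by length. With counts not divided by length Stat3 had 1478 ± 131 and Stat2 1414 ± 86.6 joint CPM in LPS-treated wild-type cells (SD, n = 3). In wild-type spleen Stat3 then had 31.6% and Stat6 20.96% of the summed STAT level. With the longest coding transcript as length Stat6 stayed above Stat3 there, at 24.3% against 22.9%. In naive wild-type cells undivided counts put Stat2, at 407 ± 20.7, above Stat4, at 293 ± 19.6 joint CPM (SD, n = 3).

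**Figure D5:**
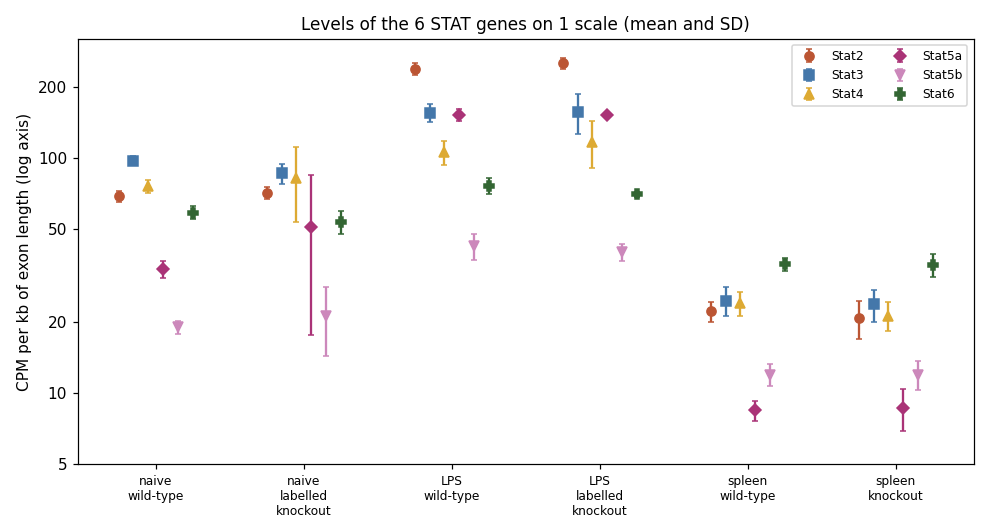
Level of each STAT gene in CPM per kb of exon length (log axis, joint TMM scale) in the 6 groups, mean and SD over 3 libraries for dendritic cells, 10 wild-type and 9 Gpr34-/- spleens. Stat2 leads after LPS at 239 in wild-type cells, Stat3 in naive wild-type cells at 97.1 and Stat6 in wild-type spleen at 35.3.

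As shares of the summed level of the 6 genes, Stat5a took 9.54 ± 0.681% in naive and 19.8 ± 0.479% in LPS-treated wild-type cells, and 6.69 ± 0.571% in wild-type spleen. Stat2 took 19.5 ± 1.60%, 31.1 ± 1.20% and 17.6 ± 1.13% in the same groups. Stat6, Stat3 and Stat4 went the other way between the groups of cells. Stat6 took 16.6 ± 0.485% in naive, 9.86 ± 0.0898% in LPS-treated cells and 27.8 ± 1.39% in spleen (SD, n = 3, 3 and 10). Stat3 took 27.5 ± 0.576% in naive and 20.2 ± 0.726% in LPS-treated cells, and Stat4 21.4 ± 0.729% and 13.7 ± 1.17%. Stat5b kept a share of 5.40 ± 0.206% and 5.47 ± 0.384% in naive and LPS-treated cells, since its rise was near that of the sum, and had 9.46 ± 0.739% in spleen. A share says nothing of the total, which these counts do not measure. Exon lengths are those of GENCODE M21 and may not be the ones used for counting.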

How the data were processed

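Whole transcriptomes of 31 mouse libraries were sequenced. Per the submitters' processing notes reads were processed with TopHat 1.3.3, Bowtie, SAMtools, bedtools and DESeq, and mm9 was the build; the use of strand is not given in the sources used here. The authors deposited 1 raw count per Ensembl gene and library, and a gene missing from a file was set to 0. Counts of up to 200 were even for 57.8 to 59.0% of values in dendritic cell and 59.0 to 62.1% in spleen files, so counts may not be single fragments. Of 29120 IDs 26090 were named. At depths of 38998746 counts and more counting error is small for the STAT genes. It is larger for Gpr34, which had 0 to 986 counts.

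Counts were tested with edgeR 4.0.16 in R 4.3.3 (TMM, filterByExpr, robust quasi-likelihood test, Benjamini-Hochberg over all genes at 0.05). The 12 dendritic cell libraries (16965 genes), the 19 spleens (20371 genes) and, for tissues, all 31 (22585 genes) were fitted apart, with 1 mean per group. The Stat5a to Stat5b ratio was tested by exact two-sided permutation (scipy 1.17.1). Tried besides were DESeq2 1.42.0, voom of limma 3.58.1 with weighted samples, RLE or no composition factors, no filter, the compared libraries alone, the replicate number as a block, no haemoglobin genes, and libraries left out. The fits were tested on simulated data with less spread between libraries than these data, which does not measure their error here. Named genes were the 6 members, Gpr34, up to 6 genes of smallest p per list, and per member the 3 genes, at a mean of at least 1 CPM, of smallest root mean square difference of centred log2(CPM + 0.5), of which 1 is not reported here. Of 12 marker lists those bearing on a result are given. The STAT genes and all 13 pathway lists were chosen with earlier results of these data known.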

Additional observations from a re-analysis of the deposited data

Results flagged for a closer look

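In 1 of 12 groups of spleen values tested, a library stood apart by Dixon's 95% criterion, where chance gives about 1 in 20. Wild-type spleen replicate 1 had 80.8 CPM of Stat5a, the highest of 10, against a median of 66.3 CPM. It was also the highest wild-type spleen for Stat2 and Stat3, at 169 and 326 CPM.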

How the results depend on the processing

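The LPS rises of Stat2, Stat5a and Stat5b kept direction and call in both labels under every alternative run. Without composition factors 3 STAT genes were called in wild-type cells and Stat6 stood at -0.031. Replicate numbers were not shown to mark a shared animal. Deviations of same-numbered libraries correlated at 0.0866 to 0.203 between naive and LPS-treated cells labelled knockout, where 3 of 3 matched their own number best, at 0.0345 to 0.0493 in wild-type cells, where 2 of 2 did, and at -0.184 to 0.491 in spleens, where 3 of 9 did. With the replicate number as a block Stat6 in wild-type cells stood at 0.35 (adjusted p = 0.0505), Stat4 between naive labels at -0.014, and in spleen 3 genes were called, with Stat5a at -0.0028 and Stat5b at -0.016. The cause of these moves was not tested. The ratio of Stat5a to Stat5b over 3 pairs of cells labelled knockout was 0.82 higher after LPS on the log2 scale with the block, as without it, and higher in all 3 pairs (exact permutation p = 0.25, the smallest that 3 pairs allow).

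For naive labels DESeq2 called 76 genes, voom 1 and no filter 1, and leaving out 1 library 0 to 1. Voom gave -0.061 for Stat4 and -0.057 for Stat5b. After LPS DESeq2 called 369 genes, the fit without the 3 libraries with Gpr34 reads 6, and leaving out 1 library 0 to 2, with Stat3 at -0.021 by voom. For the interaction DESeq2 called 21 genes and the fit without those 3 libraries 3. Without those 3 libraries naive Stat4, Stat5a and Stat5b stood at -0.19, -0.078 and -0.13; LPS-treated Stat2, Stat3, Stat4 and Stat5a at -0.0080, -0.34, -0.25 and -0.049; and the interaction of Stat2, Stat3, Stat4 and Stat5a at -0.049, -0.090, -0.059 and 0.029.

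In spleen DESeq2 called 876 genes, voom 790, no composition factors 190, and the fit without knockout spleens 4, 6 and 9 called 297. Leaving out 1 spleen gave 8 to 1051, the highest without knockout spleen 6. Voom gave 0.042 for Stat3 and 0.055 for Stat6, no composition factors -0.076 for Stat5a and -0.11 for Stat5b, no filter 0.011 for Stat6, and the fit without those 3 spleens 0.057 for Stat3 and 0.062 for Stat6.

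Leaving out 1 library gave, between naive labels, -0.0067 to 0.069 for Stat2, -0.20 to 0.29 for Stat4, -0.087 to 0.85 for Stat5a and -0.14 to 0.28 for Stat5b. After LPS it gave -0.10 to 0.16 for Stat3, -0.0089 to 0.32 for Stat4 and -0.036 to 0.038 for Stat5a. For the interaction it gave -0.010 to 0.10 for Stat2, -0.13 to 0.37 for Stat4, -0.82 to 0.11 for Stat5a, -0.34 to 0.077 for Stat5b and -0.023 to 0.14 for Stat6. In spleen it gave -0.079 to 0.0049 for Stat3, -0.021 to 0.095 for Stat5a, -0.039 to 0.046 for Stat5b and -0.036 to 0.021 for Stat6.

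With counts not divided by length, the shares in naive wild-type cells and wild-type spleen were 41.5% and 31.6% for Stat3, 13.1% and 12.6% for Stat4, 10.8% and 8.15% for Stat5a, and 11.6% and 20.96% for Stat6, and 4.74% for Stat5b in naive cells. With the longest coding transcript, chosen after seeing the data, they were 30.98% and 22.9% for Stat3, 12.5% and 9.17% for Stat5a, 4.10% and 7.51% for Stat5b, and 13.8% and 24.3% for Stat6, and 19.9% for Stat4 in naive cells.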
